A study of Homo sapiens with 4 samples.

Results

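This report describes 8 genes around the aryl hydrocarbon receptor in Caco-2 cells, namely the receptor AHR, its partner ARNT, its repressor AHRR, the target gene TIPARP, the cytochrome P450 enzymes CYP1A1, CYP1A2 and CYP1B1, and the quinone reductase NQO1. The 8 genes are among 37515 in the count table. They were chosen by symbol, starting from the observation that CYP1A1 was strongly higher in the stimulated libraries of this same comparison. Their values are therefore given as a description with no p-value. The Caco-2 line, derived from a human colorectal carcinoma, forms an enterocyte-like layer in culture. The cells were grown for 15 days in transwells, and IFNγ was added to the basal compartment. The 4 libraries are 2 of control cells given medium, with the time point 0 h, and 2 taken 3 h after IFNγ at 60 ng/ml, so IFNγ and the passing of 3 h, with any handling, cannot be told apart. All 4 are titled wild type (WT). The labels do not say whether the replicates came from separate cultures, so the p-values of other genes below measure the spread between these libraries, which may be technical.

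AHR is a transcription factor of the basic helix-loop-helix PAS family that waits in the cytosol bound to chaperones. Once it binds a ligand such as a dioxin, a plant indole or a tryptophan metabolite, it moves to the nucleus, pairs with ARNT and binds DNA at a core of the letters GCGTG. The CYP1 enzymes that it induces oxidize polycyclic aromatic compounds and many of the ligands themselves, and in the intestine they limit how much ligand passes the epithelium. AHRR and TIPARP are targets that in turn restrain the receptor.

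The libraries held 7171455 to 10365346 counts, and levels are given as CPM, counts scaled to library size by the TMM method, where 1 CPM stood for 7.14 to 10.3 counts. A gene was called when edgeR's quasi-likelihood test fell under 0.05 after Benjamini-Hochberg adjustment over all tested genes, with a log2 fold change beyond 1 in size. Of 10 IFNγ-induced genes used as a check of the labels, 9 were tested and 8 were called higher. The 8 markers of intestinal epithelium summed to 4709 CPM in the lowest library and 5143 CPM in the highest. Most of this was CDH17, VIL1 and EPCAM, while LGALS4 had 5.26 to 6.86 CPM and KRT20 9.93 to 18.7 CPM. Of the 8 markers CDX2 was called higher and SI lower. The 7 markers of immune, endothelial and connective tissue cells with a row summed to 104 to 197 CPM, most of it COL1A1, and the leukocyte marker PTPRC had at most 2 counts. Of the 4 that were tested 0 were called by edgeR or DESeq2, which gave 1 of them no adjusted p-value, with 1 higher and 0 lower at an unadjusted p-value under 0.05. The part of these cells in the results below was not tested. In bulk RNA, fewer cells of a type and less RNA per cell cannot be told apart.

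Promoter sequences are shown first for CYP1A1, CYP1A2, AHRR and TIPARP, of which the receptor is known as a regulator. The window of NQO1, also a receptor target, is not printed, and its matches are given below. RefSeq windows on GRCh38.p14 were at hand for 7 of the 8 genes, with 10 windows in all, and CYP1B1 had none. Each sequence below is the 250 bases before the annotated start, in the direction of the gene, and capitals mark GCGTG read on either strand. The first is CYP1A1, the gene with the clearest change, at chr15:74725529-74725778 on the minus strand.
CYP1A1: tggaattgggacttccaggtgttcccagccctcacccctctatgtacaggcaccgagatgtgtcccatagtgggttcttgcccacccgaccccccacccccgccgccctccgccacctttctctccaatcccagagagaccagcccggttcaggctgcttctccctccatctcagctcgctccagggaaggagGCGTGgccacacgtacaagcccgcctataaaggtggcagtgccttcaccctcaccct
The next is CYP1A2, its neighbour in the genome, at chr15:74748595-74748844 on the plus strand.
CYP1A2: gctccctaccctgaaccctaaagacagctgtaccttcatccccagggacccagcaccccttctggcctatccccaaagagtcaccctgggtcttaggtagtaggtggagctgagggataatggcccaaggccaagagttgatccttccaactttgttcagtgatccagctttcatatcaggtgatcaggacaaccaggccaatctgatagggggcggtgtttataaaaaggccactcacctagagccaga
The repressor AHRR is shown at its first window, chr5:321464-321713 on the plus strand.
AHRR: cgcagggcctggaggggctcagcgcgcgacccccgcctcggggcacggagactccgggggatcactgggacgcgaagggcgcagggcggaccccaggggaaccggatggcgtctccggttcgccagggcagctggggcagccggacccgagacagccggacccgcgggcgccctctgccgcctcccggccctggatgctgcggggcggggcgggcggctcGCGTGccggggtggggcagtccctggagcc
TIPARP is shown at its first window, chr3:156674340-156674589 on the plus strand.
TIPARP: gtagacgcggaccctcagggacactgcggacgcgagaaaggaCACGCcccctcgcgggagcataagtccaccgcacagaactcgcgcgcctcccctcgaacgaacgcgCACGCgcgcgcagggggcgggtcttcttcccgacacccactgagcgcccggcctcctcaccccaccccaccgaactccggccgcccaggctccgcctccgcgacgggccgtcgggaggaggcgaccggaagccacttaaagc

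CYP1A1 had 1 match, from 57 to 53 bases before the start, and CYP1A2 had 0. The first AHRR window had 1 match and the second had 2. The first TIPARP window had 2 matches, both on the opposite strand, and its other 2 windows had 0. AHR, ARNT and NQO1 had 0 matches. In all, 4 of the 10 windows held the motif, beside 32.2% of the 35116 windows in the RefSeq table. Both strands were searched. A match describes letters and not a bound site, and the best studied receptor sites of CYP1A1 lie further upstream than these windows reach.

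CYP1A1 (ENSG00000140465, minus strand of chromosome 15 of GRCh37, 75011883 to 75017877) encodes the main inducible enzyme of the set, which hydroxylates polycyclic aromatic hydrocarbons. At 0 h it had 448 and 262 counts, and after IFNγ 4563 and 3013 counts. This was 43.6 and 36.7 CPM at 0 h against 444 and 411 CPM at 3 h. The stimulated libraries stood far above the unstimulated ones, and the replicates of each group lay close together. The means were 40.2 ± 4.89 CPM (SD, n = 2) and 427 ± 23.1 CPM (SD, n = 2), a 10.6-fold difference. The fitted log2 fold change was 3.41 (SE 0.138). It was 3.34 between the replicate 1 libraries and 3.48 between the replicate 2 libraries. It ranked 33 of the 14820 tested genes by log2 fold change. The exons of CYP1A1 overlap those of no other annotated gene. Across genes, which are not independent replicates, the log2 fold change went up with GC content (Spearman's rho 0.447), and the 954 tested genes within 1 percentage point of the GC content of CYP1A1 (52.7%) had a median of 0.15. With the trend of GC content and exon length removed, CYP1A1 stood at 3.22.

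**Figure D1:**
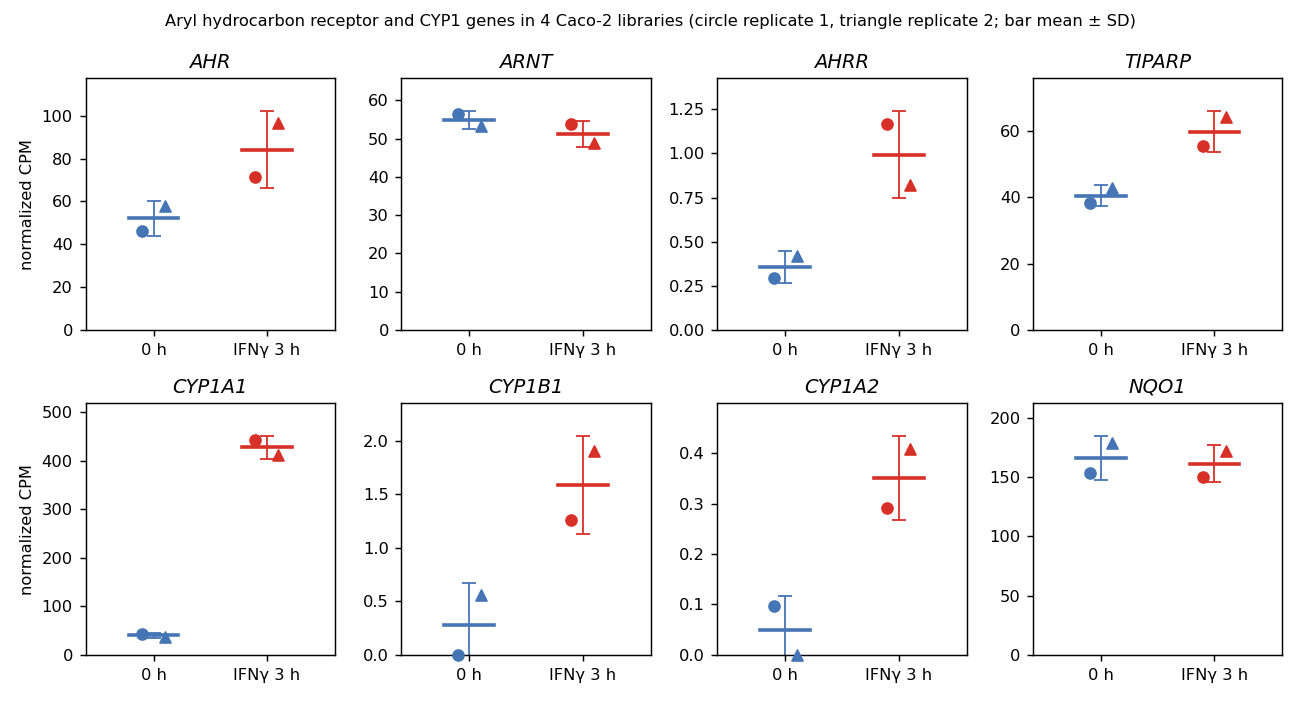
Normalized CPM (vertical axis of each panel, from 0) of the 8 genes at 0 h and after 3 h of IFNγ; circles are replicate 1, triangles replicate 2, and bars give the mean ± SD of the 2 libraries. CYP1A1 goes from 40.2 to 427 CPM, AHR and TIPARP are higher by smaller amounts, ARNT and NQO1 overlap, and CYP1B1, AHRR and CYP1A2 stay under 2 CPM.

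The other CYP1 genes were near the limit of detection. CYP1B1 (ENSG00000138061, chromosome 2 of GRCh37, 38294116 to 38337044), which also metabolizes oestrogens, had 0 and 4 counts at 0 h and 13 and 14 counts after IFNγ. Both stimulated libraries were above both unstimulated ones. The ratio of summed counts, scaled to library size, was 6.67 with an exact 95% interval of 2.32 to 26.2, which covers counting error only. The fitted log2 fold change of 2.66 (SE 0.916) rests on these few counts. It was 1.45 without the unstimulated replicate 1 and 6.87 without the unstimulated replicate 2, the library that holds all 4 counts, where the remaining control count is 0 and the value depends on the prior count. CYP1B1 passed the filter on low counts through its stimulated libraries. Its exons overlap those of RMDN2, which had 8 to 26 counts, and of antisense genes, and the strand setting of the counting is not given in the sources used here.

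CYP1A2 (ENSG00000140505, plus strand of chromosome 15, 75041186 to 75048948), the enzyme that clears caffeine in the liver, lies head to head with CYP1A1 with a gap of 23308 bases on GRCh37. It had 1 and 0 counts at 0 h and 3 and 3 counts at 3 h. The ratio of summed counts was 5.93 with an exact 95% interval of 0.720 to 273, so a difference was not detectable at this depth. The gene was not tested. Per kilobase of exon (RPKM, CPM divided by the GENCODE 44 exon length), the stimulated level of CYP1A1 was 127 RPKM, against 0.264 RPKM for CYP1B1 and 0.112 RPKM for CYP1A2. CYP1A1 was thus the only enzyme of the family with more than 14 counts in any library.

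The receptor AHR (ENSG00000106546, plus strand of chromosome 7, 16955983 to 17385776) had 46.3 and 58.0 CPM at 0 h and 71.4 and 96.9 CPM after IFNγ. The groups did not overlap, but the stimulated libraries were unequal. The means were 52.1 ± 8.31 CPM (SD, n = 2) and 84.1 ± 18.0 CPM (SD, n = 2), and the log2 fold change was 0.69 (SE 0.185), under the fold change threshold. It was 0.62 in replicate 1 and 0.74 in replicate 2, and 0.44 with the stimulated replicate 2 left out. AHR has a GC content of 40.8%, and with the trend of GC content and exon length removed its log2 fold change was 1.07. That is just over the fold change threshold, and since the set was chosen on this comparison no test result is read from it. In the bin of genes from 40 to 45% GC the median log2 fold change was -0.20.

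ARNT (ENSG00000143437, minus strand of chromosome 1, 150782189 to 150849184), the partner that AHR shares with the hypoxia-inducible factors, had 56.5 and 53.2 CPM at 0 h and 53.7 and 48.8 CPM at 3 h. The groups overlapped. Its log2 fold change was -0.097 (SE 0.128), smaller in size than its standard error.

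AHRR (ENSG00000063438, plus strand of chromosome 5, 321829 to 438406) competes with AHR for ARNT. It had 3 and 3 counts at 0 h and 12 and 6 counts after IFNγ. Both stimulated libraries were higher, and the ratio of summed counts was 2.97 with an exact 95% interval of 1.13 to 9.13, which covers counting error only and not the spread between cultures. With so few counts AHRR did not pass the filter and was not tested. The annotation also holds a readthrough gene, PDCD6-AHRR, over the same exons, which is not analysed here.

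TIPARP (ENSG00000163659, plus strand of chromosome 3, 156391024 to 156424559) encodes PARP7, a mono-ADP-ribosyltransferase that acts on the receptor. It had 38.3 and 42.7 CPM at 0 h and 55.4 and 64.1 CPM after IFNγ. The groups did not overlap. The means were 40.5 ± 3.16 CPM (SD, n = 2) and 59.8 ± 6.14 CPM (SD, n = 2), with a log2 fold change of 0.56 (SE 0.141), under the fold change threshold. It was 0.53 in replicate 1 and 0.58 in replicate 2.

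NQO1 (ENSG00000181019, minus strand of chromosome 16, 69740899 to 69760571) reduces quinones and is controlled by the receptor and by the antioxidant factor NRF2. It had 153 and 179 CPM at 0 h and 150 and 172 CPM at 3 h. The groups overlapped, and within each group replicate 2 was the higher. The log2 fold change was -0.043 (SE 0.132). NQO1 and CYP1A1, both counted among the classical receptor targets, thus differed by more than 3 units on the log2 scale in the same libraries.

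Of the 6 tested genes of the set, 1 was called higher and the other 5 were not called, and 2 were not tested. The share of all tested genes called higher was 2.88%, and the share called lower was 4.4%. Since the set was chosen on this comparison, nothing is read from its count. In 4 of the 6 genes both stimulated libraries were above both unstimulated libraries, a pattern that 31.6% of all tested genes showed, and 30.8% showed the opposite pattern. In 2 genes the groups overlapped. The 4 include CYP1A1, on which the set was chosen, and CYP1B1, which passed the filter through its stimulated libraries. Nothing is therefore read from these counts either.

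**Figure D2:**
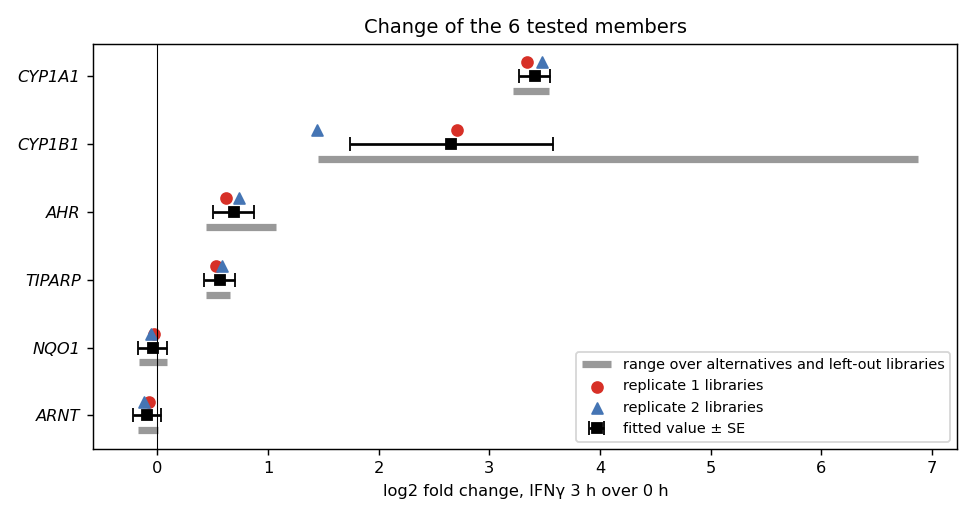
Log2 fold change of IFNγ 3 h over 0 h (horizontal axis) of the 6 tested genes; squares are fitted values ± SE, circles and triangles are the replicate 1 and replicate 2 libraries alone, and grey bars span the alternative fits and the fits with 1 library left out. CYP1A1 stays between 3.22 and 3.54, and CYP1B1 runs from 1.45 to 6.87.

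**Figure D3:**
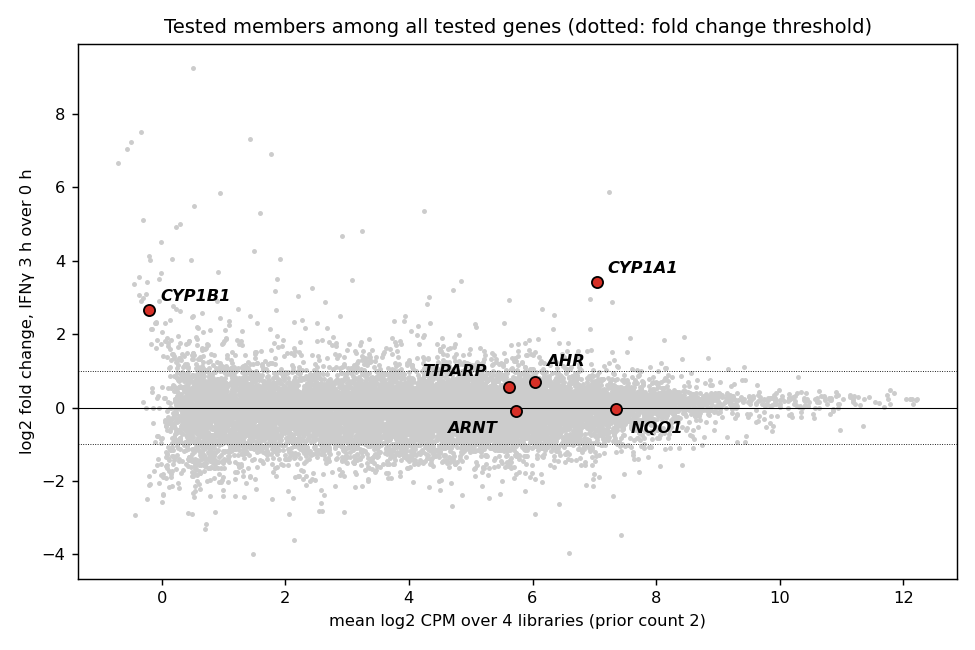
Log2 fold change (vertical axis) against mean log2 CPM over the 4 libraries (horizontal axis) for the 14820 tested genes in grey and the 6 tested genes of the set in red; dotted lines mark a log2 fold change of 1 in either direction. CYP1A1 lies apart from the bulk of genes at its level, with a log2 fold change of 3.41, and CYP1B1 lies at the low end of the levels.

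Ordered by level per length at 0 h, NQO1 was highest with 51.5 and 60.2 RPKM, and CYP1A1 followed with 13.0 and 10.9 RPKM. ARNT had 8.76 and 8.26 RPKM and TIPARP 7.97 and 8.90 RPKM, and these 2 neighbours overlapped. AHR came next with 5.74 and 7.20 RPKM. CYP1B1, AHRR and CYP1A2 were each under 0.1 RPKM and could not be put in order at this depth. After IFNγ the order began with CYP1A1, at 132 and 122 RPKM, above NQO1 at 50.5 and 58.0 RPKM. TIPARP then had 11.6 and 13.4 RPKM and AHR 8.87 and 12.0 RPKM, and their replicates overlapped. ARNT had 8.33 and 7.58 RPKM and was below both libraries of AHR. CYP1A1 thus passed NQO1 between the groups. AHR passed ARNT per length, which rests on the annotated exon lengths. In CPM these 2 genes overlapped at 0 h, with AHR at 46.3 and 58.0 and ARNT at 56.5 and 53.2.

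The genes whose pattern over the 4 libraries was most like that of CYP1A1 were found by the root mean square difference of log2 CPM, each gene centred on its own mean. The closest was TRIM29, a TRIM family gene of epithelia, with a difference of 0.0883 log2 units. BNIP5 followed with 0.111, UBD with 0.143, PSMB9 with 0.193 and CXCL9 with 0.199. UBD encodes the ubiquitin-like FAT10, PSMB9 a subunit of the immunoproteasome and CXCL9 a chemokine. TRIM29 had 29 and 14 counts at 0 h and 301 and 186 counts at 3 h. BNIP5 had 102 and 52 counts at 0 h and 1094 and 607 at 3 h. UBD and CXCL9 had 0 counts in both unstimulated libraries, so their likeness depends on the prior count of 2. With 4 libraries this likeness is mostly that of a rise of similar size.

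Around the receptor, lists of other genes of the pathway were examined in the fit over all genes. The lists were chosen with earlier results of these data known. Their counts and p-values, here and below, are therefore a description and not an independent test of the pathway. The 6 lists held 74 genes with a row, of which 62 were tested. There 5 were called higher, SLC7A5, EREG, NPAS1, OSGIN1 and HMOX1, and 0 were called lower by edgeR. At an unadjusted p-value under 0.05, 13 were higher and 10 lower, and DESeq2 called 4 higher and 0 lower and gave 2 genes no adjusted p-value. Without the unstimulated replicate 1 the number called higher was 2, and without the stimulated replicate 2 it was 3. Without the stimulated replicate 1, 3 were called lower. The median log2 fold change of all tested genes was -0.0073. Of these 14820 genes edgeR called 2.88% higher and 4.4% lower, and DESeq2 called 336 higher and 580 lower. At an adjusted p-value under 0.05 from edgeR with no fold change threshold, 1337 were higher and 1626 lower. The share of all tested genes at an unadjusted p-value under 0.05 was not counted, so nothing is read from such counts in any list here.

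Among 12 other genes known as receptor targets, 10 were tested, 2 were called higher and 0 lower, and the median log2 fold change was 0.28. SLC7A5, a transporter of large neutral amino acids such as tryptophan, had 103 and 95.5 CPM at 0 h and 335 and 398 CPM after IFNγ. It rose with a log2 fold change of 1.89 (SE 0.131, adjusted p = 0.000502 from edgeR). EREG, the EGF receptor ligand epiregulin, had 48.0 and 56.0 CPM at 0 h and 116 and 139 CPM after IFNγ. It rose with a log2 fold change of 1.29 (SE 0.146, adjusted p = 0.00225 from edgeR). Both kept their call under every alternative fit and with each library left out.

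The detoxification genes of this list were not called. ALDH3A1, an aldehyde dehydrogenase of the classical receptor battery, had a log2 fold change of 0.37 (SE 0.278), at 3.96 CPM at 0 h. GSTA1 and GSTA2, which code for near-identical glutathione transferases whose reads may be shared, had -0.17 and -0.56 (adjusted p = 0.392 and 0.0464 from edgeR), and GSTA2 had -0.31 without the unstimulated replicate 2 and -0.30 with the trend of GC content and exon length removed. UGT1A6 had -0.062, but it shares exons with the other UGT1A genes, so its count is uncertain. CYP2S1, a further P450 enzyme known to respond to the receptor, had 0.61 (adjusted p = 0.0137 from edgeR), under the fold change threshold, and 0.37 with that trend removed. SERPINB2 and ALDH1A3 had at most 1 count in any library. The cause of the unequal change of these targets was not tested.

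The 9 genes of the receptor complex and its coactivators were all tested. By DESeq2, and by edgeR with the group as the only term, 0 were called in either direction. At an unadjusted p-value under 0.05, 1 was higher and 3 were lower. HSP90AB1, one of the chaperones that hold AHR in the cytosol, had a log2 fold change of -0.0035, and the cochaperone PTGES3 had 0.10. HSP90AA1 had 555 and 711 CPM at 0 h but 420 and 201 CPM after IFNγ, so its stimulated libraries were far apart. Its log2 fold change was -1.03 (SE 0.31, adjusted p = 0.056 from edgeR). Without the stimulated replicate 1 its value was -1.66 and it was called, and without the stimulated replicate 2 its value was -0.61 and it was not. NCOA1, a coactivator, had -0.55 (adjusted p = 0.019 from edgeR), under the fold change threshold.

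Of the 13 other bHLH-PAS genes, the family of AHR and ARNT, 11 had a row and 9 were tested. NPAS1 was the 1 called higher, with 36 and 18 counts at 0 h and 70 and 46 counts at 3 h and a log2 fold change of 1.10 (SE 0.295, adjusted p = 0.0394 from edgeR). NPAS1 lost its call with DESeq2, with library size only (1.05) and with the trend of GC content and exon length removed (0.83). It also lost it without either unstimulated replicate or the stimulated replicate 1, where its value ran from 0.91 to 1.37. By edgeR 0 genes were called lower, with 3 higher and 2 lower at an unadjusted p-value under 0.05, and DESeq2 called 0. EPAS1 (HIF-2α), which pairs with ARNT, had 0.81 (adjusted p = 0.0077 from edgeR) and CLOCK, a core clock factor, had -0.98 (adjusted p = 0.0208 from edgeR), both within the fold change threshold. CLOCK was called lower at -1.18 without the unstimulated replicate 2 and at -1.28 without the stimulated replicate 1, and at -1.02 with library size only. It stood at -0.71 without the unstimulated replicate 1 and at -0.41 with the trend of GC content and exon length removed (adjusted p = 0.158 from edgeR). ARNT2, the close relative of ARNT, had at most 1 count in any library.

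Enzymes of the tryptophan and kynurenine path make ligands of the receptor. Of these 12 genes 6 were tested, and 0 were called in either direction by edgeR or DESeq2, which gave 1 of them no adjusted p-value, with 0 higher and 1 lower at an unadjusted p-value under 0.05. IDO1, the first enzyme of the path and a well-known IFNγ target in many cell types, had 1 and 2 counts at 0 h and 2 and 0 counts at 3 h. A rise of IDO1 was not detectable at this depth, where 3 counts stand for 0.292 to 0.420 CPM. TDO2, which opens the same ring, had 5 to 12 counts, and IDO2 had 0 counts in every library. HAAO and AFMID, at 145 and 55.4 CPM after IFNγ, had log2 fold changes of 0.23 and 0.038, and KYAT3 had -0.60 (adjusted p = 0.0418 from edgeR), or -0.40 with the trend of GC content and exon length removed.

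Of 19 NRF2 regulators and antioxidant genes, the other control of NQO1, 17 were tested, 2 were called higher and 0 lower. At an unadjusted p-value under 0.05, 4 were higher and 2 lower, and DESeq2 called 2 higher and 0 lower. HMOX1, which breaks down haem, had 71.6 and 83.1 CPM at 0 h and 145 and 172 CPM after IFNγ. It rose with a log2 fold change of 1.03 (SE 0.139, adjusted p = 0.00384 from edgeR). OSGIN1, an oxidative stress response gene whose exons overlap those of MLYCD, rose with 1.04 (SE 0.149, adjusted p = 0.00453 from edgeR). Both lie close to the fold change threshold. They fell under it without the unstimulated replicate 1, at 0.93 and 0.98, and without the stimulated replicate 2, at 0.89 and 0.87. They were also under it with the trend of GC content and exon length removed, at 0.80 and 0.84, and with library size only, at 0.992 and 0.997. NFE2L2, which encodes NRF2, had 0.81 (adjusted p = 0.00634 from edgeR), and with the trend of GC content and exon length removed it was called higher at 1.19. The exons of NFE2L2 overlap those of AGPS and HNRNPA3 on the opposite strand, and the strand setting is not given, so its count is uncertain. KEAP1, the inhibitor of NRF2, had 0.65 (adjusted p = 0.0177 from edgeR), and BACH1, the repressor of HMOX1, had -0.95 (adjusted p = 0.00302 from edgeR). BACH1 was called lower at -1.04 without the stimulated replicate 1 and stood at -0.54 with the trend of GC content and exon length removed, where KEAP1 had 0.41. The glutathione synthesis gene GCLC, at -0.097, and TXNRD1, at 0.29, stood nearer to NQO1. NFE2L2, KEAP1, NCOA1, ALDH3A1, GCLC, IDO1 and other genes named here that were neither called nor highest in level were chosen after their values were seen.

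A P450 enzyme needs electrons and haem. Of the 12 genes for electron donors and haem synthesis 0 were called in either direction by edgeR or DESeq2, with 2 higher and 1 lower at an unadjusted p-value under 0.05. POR, the reductase that supplies CYP1A1, had 208 CPM at 0 h and 247 CPM after IFNγ, a log2 fold change of 0.25 (SE 0.12). ALAS1, the rate-limiting enzyme of haem synthesis, had 0.79 (adjusted p = 0.00619 from edgeR), and CPOX, a later step, had -0.81 (adjusted p = 0.00631 from edgeR). Both stayed under the fold change threshold in size.

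The rest of the P450 superfamily was taken as a whole. Outside the CYP1 genes, 52 protein-coding CYP genes had a row and 21 were tested, with log2 fold changes from -1.15 to 0.90 and a median of -0.15. By edgeR 0 were called higher and 1 lower, where 2.88% and 4.4% of all tested genes were called. At an unadjusted p-value under 0.05, 6 were higher and 3 lower. DESeq2 called 0 but gave 6 of the 21, CYP4B1 among them, no adjusted p-value. Nothing is read from these counts about the superfamily. The gene called lower was CYP4B1, at 6.04 and 4.20 CPM at 0 h and 2.33 and 2.32 CPM after IFNγ, with a log2 fold change of -1.15 (SE 0.332, adjusted p = 0.0492 from edgeR). It lost its call with the unstimulated replicate 1 left out, at -0.85, and with either stimulated replicate left out, at -1.16 without replicate 1 and -1.17 without replicate 2. The highest value of any other P450 gene was that of CYP8B1, 0.90, with 11 to 43 counts a library. The log2 fold change of CYP1A1, 3.41, was above all 21 of them, but CYP1A1 was chosen for its rise in this same comparison.

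**Figure D4:**
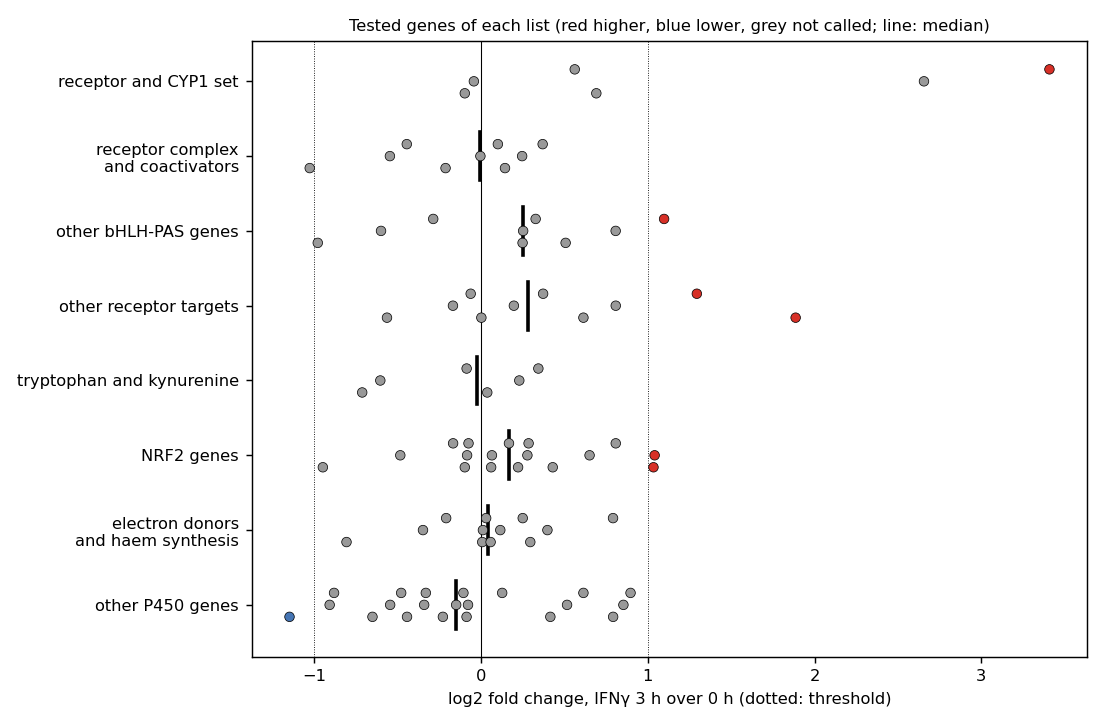
Log2 fold change of IFNγ 3 h over 0 h (horizontal axis) of each tested gene, by list; red points were called higher, the blue point was called lower, grey points were not called, and a line marks the median of each list below the top row. In the receptor and CYP1 set CYP1A1 lies at 3.41, while the other P450 genes run from -1.15 to 0.90.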

How the data were processed

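RNA-seq was analysed in 4 Caco-2 libraries, 2 unstimulated and 2 stimulated with IFNγ. Per the labels, RNA was isolated with the mirVana kit and libraries were made with an Illumina TruSeq kit. The submitters' processing notes name HISAT 0.5.1 and HTSeq 0.6.1p1, and the genome build, annotation and strand setting are not given in the sources used here. The values the authors deposited are counts, whole numbers for each Ensembl gene and library, neither normalized nor pooled. Symbols, GRCh37 coordinates, exon lengths and GC content came from GENCODE 44, which matched 36212 of 37515 identifiers (96.5%).

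Counts were filtered with edgeR's default filter (14820 genes), scaled by TMM and fitted with edgeR 4.0.16 in R 4.3.3 with the group as the only term, and the quasi-likelihood test was adjusted over all tested genes. Standard errors are the log2 fold change over the square root of F. Log2 CPM used a prior count of 2. The RPKM values were computed here from the deposited counts. The depth gave 7.14 to 10.3 counts per CPM, and intervals and floors of 3 counts cover counting error only. Replicates of each group differed by more than counting noise, with a chi-square per degree of freedom of 6.76 and 7.75. Some of the fits were first run on simulated counts of known fold change. False calls made up 5.79% of the calls with the main edgeR fit and 2.27% with DESeq2. They made up 6.99% with the replicate number as a block and 5.07% with the trend of GC content and exon length removed. The other fits were not simulated.

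Alternatives were other scalings, DESeq2 1.42.0, other filters, the replicate number as a block, loess removal of the trend in GC content and exon length, no fold change threshold, a pseudocount of 0.5 CPM and each library left out. The members and gene lists were chosen with earlier results of these data known. All 8 members are named, with every called gene of the lists, the 3 highest genes of a list or fewer among those not called, the 5 genes most like CYP1A1 and further genes chosen after their values were seen. A further motif search is not reported here.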

Additional observations from a re-analysis of the deposited data

How the results depend on the processing

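The log2 fold change of CYP1A1, the gene the set was chosen on, was 3.22 once the trend of GC content and exon length was removed. It was 3.22 with the replicate block as well, and 3.31 to 3.54 with 1 library left out. The number of the 8 genes called higher was 1 in the main edgeR fit. It was 2 without a filter (CYP1B1 added) and 2 with the replicate block (CYP1B1). With the GC and length trend removed it was 2 (AHR), and 3 with both (CYP1B1 and AHR). In none of these fits was 1 of the 8 called lower. Of all genes, 537 were called higher without a filter, 492 with the block, 393 with the trend removed and 469 with both. Since the set was chosen on this comparison, nothing is read from its counts, and CYP1B1 was near the limit of detection. The labels do not say what the replicate numbers share. The deviations of same-numbered libraries from their group means correlated across genes (r = 0.415), and the replicate block gave 492 genes called higher and 896 lower, against 427 and 652.

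Over all genes, 319 were called lower with the GC and length trend removed, and 1337 higher and 1626 lower with no fold change threshold. With 1 library left out, where the lone sample of a group is assumed to vary like the other group, 339 to 455 were called higher and 554 to 1112 lower, the last without the stimulated replicate 1. In the pathway lists the number called higher was 2 with library size only, 3 with the GC and length trend removed, with or without the block (SLC7A5, EREG and NFE2L2), 11 with no fold change threshold and 2 to 4 with 1 library left out. The number called lower was 1 with library size only (CLOCK), 1 without a filter, 1 with the replicate block and 1 with the trend removed and the block (each time HSP90AA1, at -1.01, -1.10 and -1.04), 6 with no fold change threshold and 0 to 3 with 1 library left out. Of the other P450 genes 1 was called higher with the trend removed, with or without the block (CYP20A1), and 0 were called lower with upper quartile scaling and with DESeq2, which gave CYP4B1 no adjusted p-value, against 1, and 0 to 2 with 1 library left out. The causes were not tested.

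Signs reversed in genes that were not called. NQO1 ran from -0.16 to 0.088 with 1 library left out. HSP90AB1 was 0.041 with upper quartile scaling and 0.015 without a filter, HIF1A 0.14 with the trend removed and 0.14 with the block as well, GSTA1 0.077 and 0.080, HAAO -0.014 and -0.018, and AFMID -0.14 and -0.15 in the same fits. With library size only AFMID was -0.0069 and CYB5B -0.034. With 1 library left out HSP90AB1 ran from -0.13 to 0.14, PTGES3 from -0.035 to 0.26, AFMID from -0.055 to 0.16 and CYB5B from -0.13 to 0.17. Of 458 recomputed values of 35 single genes, 376 kept their side or moved by less than the replicate spread. Without a filter, and without the stimulated replicate 2, the spread was pooled fully over genes, which makes those calls less cautious. Depth limits CYP1A2, AHRR and CYP1B1 most.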
